A study of Mus musculus with 8 samples.

Results

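The difference between Gata1 knock-out (KO) and wild-type (WT) mouse dendritic cells in their response to lipopolysaccharide (LPS) was measured as an interaction. This is the KO response, KO with LPS minus KO at steady state, minus the WT response, WT with LPS minus WT at steady state, in log2 units. All 8 of the 8 libraries of the study entered it, 2 in each of 4 groups: KO steady state, KO LPS, WT steady state and WT LPS. Steady-state cells received no LPS, and the 2 libraries of a group are described as separate biological replicates. Of 23420 features in the count table, 12442 passed the filter on low counts. These were ranked by the interaction and sorted by what each genotype did on its own. The strain, age and sex of the mice, the way Gata1 was deleted, the source of the cells, and the dose and time of LPS were not given in the sources used here.

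LPS is an outer membrane component of Gram-negative bacteria and is sensed by Toll-like receptor 4 together with the co-receptors LY96 and CD14. The adaptors MyD88 and TRIF pass the signal to NF-kB, AP-1 and interferon regulatory factors, which switch on cytokine genes, costimulatory ligands and, by way of secreted type I interferon, antiviral genes. Dendritic cells that mature under LPS lower their antigen uptake, display costimulatory ligands to T cells and follow the chemokine receptor CCR7 to lymph nodes. GATA1 is a zinc-finger transcription factor best known for its role in red cell, platelet, mast cell and eosinophil development.

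Total counts were 8005151 to 15495249 per library. Gata1 itself had 0 reads in each of the 4 KO libraries, 1 and 10 reads in WT steady state, and 0 and 1 in WT LPS, so the reads of the gene do not tell the WT LPS libraries from the KO LPS libraries. The pairs of libraries were less alike with LPS than without. Read counts were scaled to a common library size, written CPM, and Pearson's r between the 2 libraries of a group over log2 CPM was 0.981 in KO steady state, 0.972 in WT steady state, 0.954 in KO LPS and 0.910 in WT LPS. The 2 WT LPS libraries stood apart for genes of known LPS and stress programmes: Fscn1, an actin bundler of mature dendritic cells, had 236 and 3109.5 CPM, the antiviral gene Mx1 74.6 and 1001 CPM, the heat shock gene Hspa1a 273 and 9.28 CPM and the hypoxia-response gene Vegfa 2906 and 948 CPM. The KO LPS libraries differed too, with 289 and 53 CPM of Fscn1 and 1064 and 2433 CPM of Vegfa.

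All 16 dendritic cell identity markers examined were detected and passed the filter, with the MHC class II genes H2-Aa, H2-Ab1 and Cd74 the most abundant. Their summed level, in CPM of total counts, was 19000 to 31470 at steady state, 12740 and 15890 in WT LPS, and 5143 and 8205 in KO LPS. Summed macrophage and monocyte markers (17 genes in the table) gave 22720 to 30800 at steady state, 12920 and 21630 in KO LPS, and 4576 and 6330 in WT LPS. The LPS libraries of the genotypes did not overlap for either sum. Cd74, H2-Aa and H2-Ab1 made up most of the dendritic cell sums with LPS. Of the macrophage and monocyte sums, Lyz2 alone gave 8160 and 15970 CPM in KO LPS and 2145 and 2010 in WT LPS. The red cell genes Hba-a1 and Hbb-b1 had no reads in any library, and summed T and NK cell markers stayed between 1.22 and 9.07 CPM. The erythroid and megakaryocyte markers, which include Hba-a1 and Hbb-b1, summed to 82.9 to 433.7 CPM. Most of that sum came from Pf4, at 75.9 to 342 CPM, and Ppbp had 2.36 to 87.0 CPM. Most of the summed neutrophil markers came from 2 genes. Lcn2 had 2.21 to 37.7 CPM of total counts at steady state, 2160 and 1067 in WT LPS, and 2069 and 2251 in KO LPS, and Mmp8 had 513.7 to 622 at steady state and 150.9 to 549 with LPS. The neutrophil granule genes Elane and Mpo were at 0.45 CPM or less in each LPS library. Other genes of the list were not alike with LPS. Camp had 4.36 to 9.34 CPM and Ltf 1.58 to 10.8 CPM, while S100a9 had 1.53 CPM or less. S100a8 had 8.25 and 8.52 CPM in WT LPS and 10.1 and 18.4 in KO LPS. WT steady-state library 2 held more reads of basophil and neutrophil genes than the other libraries at steady state, for example 2.22 and 48.9 CPM of Ngp in WT steady-state libraries 1 and 2. In these bulk samples, a different number of cells of a type and a different RNA level per cell cannot be told apart.

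No single gene's response was shown to differ between the genotypes at an adjusted p under 0.05 by edgeR's quasi-likelihood test. The share of tested genes called was 0%, and the smallest Benjamini-Hochberg adjusted p was 0.337. At an unadjusted p under 0.05 there were 797 genes, 6.41% of those tested, where an even spread of p-values gives 5%. In 344 of them (2.76%) the KO response was the higher, and in 453 (3.64%) it was the lower. The number at an unadjusted p under 0.05 was 404 to 447 when any one of KO steady-state libraries 1 and 2 and WT steady-state library 1 was left out, 1714 without WT LPS library 1 and 1626 without WT LPS library 2. KO was the lower in 56.8% of the 797 and in 43.8% of the genes without WT LPS library 2. At an unadjusted p under 0.01 there were 202 genes and under 0.001 there were 25. The other tools differed: DESeq2, which shrinks gene-wise spread in another way, called 104 genes (43 with the higher KO response and 61 with the lower), all of them among the 797, while limma-voom with sample weights called 0, with 597 at an unadjusted p under 0.05. The median standard error (SE) of an interaction was 0.54, against 0.39 for the response of either genotype. Single genes below are therefore given with their unadjusted interaction p, and "called" is kept for a response with an adjusted p under 0.05 within a genotype. The edgeR p-values rest on 1 spread per gene, pooled over the 4 groups of 2 libraries and shrunk toward that of other genes. They do not measure the spread of any 1 group alone, and the groups varied unequally.

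**Figure D1:**
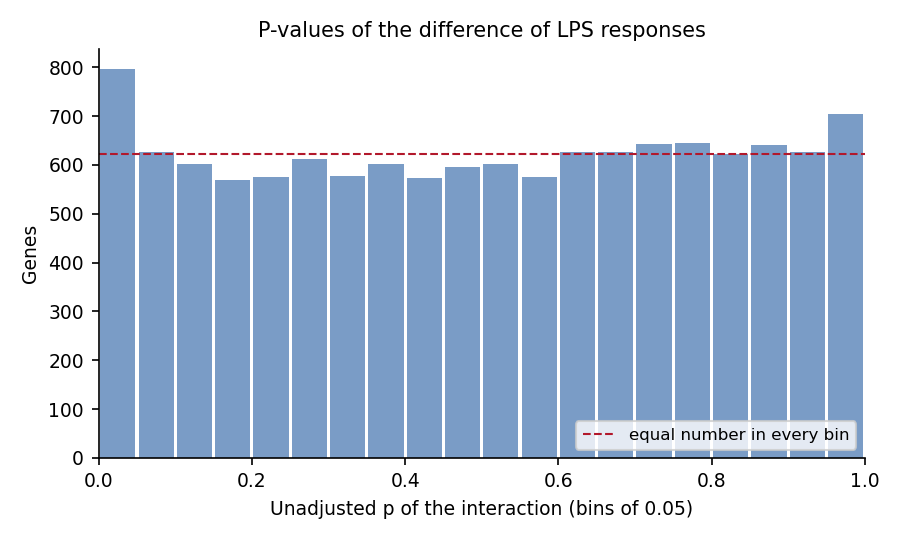
Number of genes (y axis) in each bin of 0.05 of the unadjusted interaction p (x axis) over 12442 tested genes. The dashed line is the number that an even spread would put in every bin; the first bin holds 797 genes, 6.41%, and the other bins lie near the line.

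Each genotype on its own responded to LPS. In WT cells 373 genes (3%) rose and 434 (3.49%) fell at an adjusted p under 0.05, and in KO cells 659 (5.3%) rose and 804 (6.46%) fell. The responses ran in the same direction for most genes called in either genotype. Of the 373 genes that rose in WT, 358 (96%) had a positive KO response, and of the 434 that fell, 423 (97.5%) had a negative one. Of the 659 that rose in KO, 633 (96.1%) were positive in WT, and of the 804 that fell, 770 (95.8%) were negative. Across all tested genes the 2 responses, which share no library, correlated with Pearson's r of 0.794 and Spearman's rho of 0.758, given as a description because genes are not independent. Genes called in the same direction in both numbered 552, with a median KO response 1.042 times the WT response. The number of genes called in WT, 807 in all, was 370 and 378 without KO steady-state libraries 1 and 2, 70 and 119 without WT steady-state libraries 1 and 2, and 3629 without WT LPS library 2. In KO, where it was 1463 in all, it was 144 and 143 without KO steady-state libraries 1 and 2, 884 and 249 without KO LPS libraries 1 and 2, 611 and 634 without WT steady-state libraries 1 and 2, and 3345 and 3328 without WT LPS libraries 1 and 2.

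**Figure D2:**
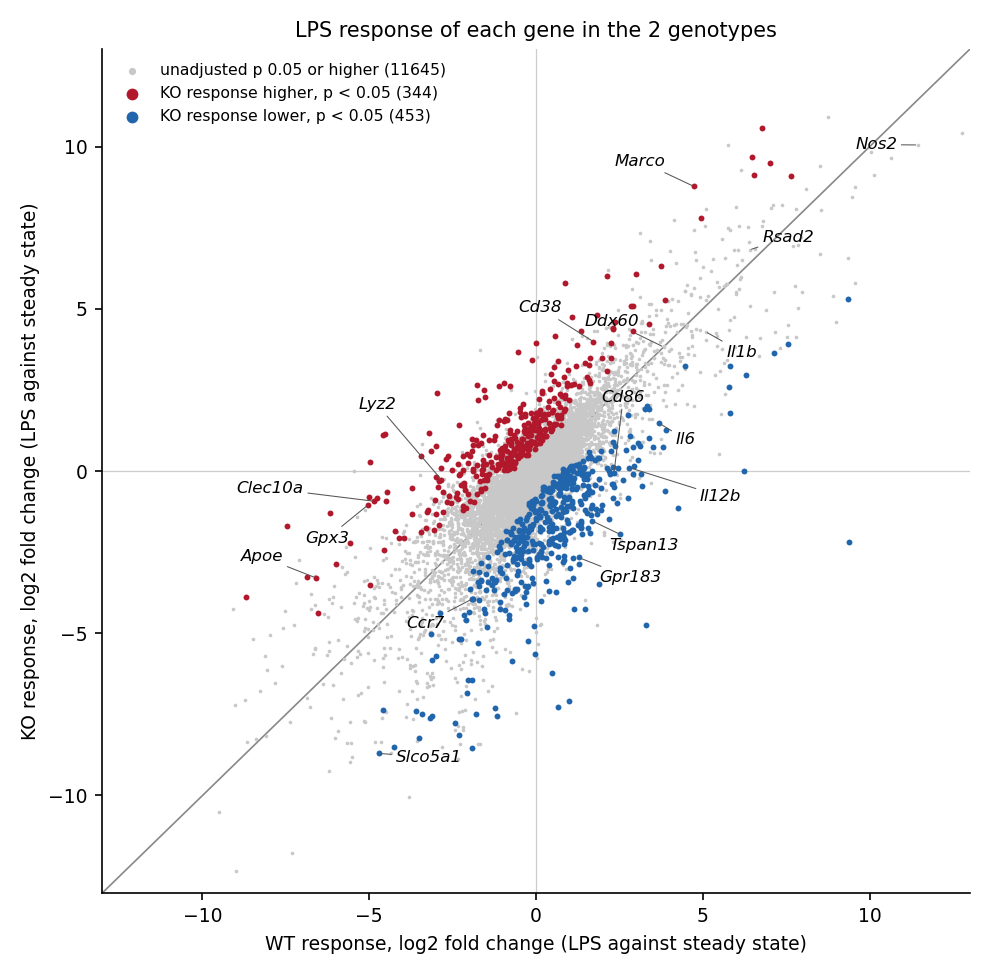
Log2 response to LPS in WT (x axis) and KO (y axis) for each of 12442 genes, with the line of equal responses. Coloured points have an unadjusted interaction p under 0.05 (344 red, KO response higher; 453 blue, KO response lower); Nos2, Rsad2, Ddx60 and Il1b lie near the line, Cd86, Il6 and Il12b below it, and Gpx3, Apoe, Clec10a and Lyz2 above it.

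Sorting by calls gave 9 classes. The largest called groups were 516 genes repressed in KO and not called in WT and 394 induced in KO and not called in WT. Next came 287 repressed in both and 265 induced in both. A further 147 were repressed in WT alone, 107 were induced in WT alone, 1 (Tspan13) was induced in WT and repressed in KO, and 0 did the opposite. A call in one genotype only does not show a difference. Of the 516, 167 had an unadjusted interaction p under 0.05, as did 100 of the 394, 48 of the 147 and 46 of the 107. The direction of these is set by how the classes were made. The direction is not set for genes called the same way in both. There, 36 of the 265 induced genes reached an unadjusted p under 0.05, 24 with the larger KO response and 12 with the smaller, and the median response was 2.90 in WT and 3.26 in KO. Among the 287 repressed genes the numbers were 18 and 18, with medians of -3.12 and -3.27. Sorted by a 2-fold change in place of calls, 1069 genes were induced in both, 1521 repressed in both, 53 induced in WT and repressed in KO, and 18 repressed in WT and induced in KO.

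The 797 genes were chosen by the interaction, so their levels are a description and not a test. Their median KO minus WT difference in size was 1.62 log2 units with LPS and 0.33 at steady state, against 0.41 and 0.22 over all tested genes. The responses of the genotypes had opposite signs in 403 of the 797 and in 2560 of all 12442. Both of these comparisons are moved by the choice itself, and libraries of a group also varied more with LPS than without. Comparing single libraries, every KO LPS to KO steady-state difference lay above every WT one in 1143 genes (9.19%) and below in 1210 (9.73%). These shares count separation alone and are not a test.

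Tspan13, which encodes a tetraspanin membrane protein (chr12:36014555-36042478, GRCm38), ranked first. It had 56.2 and 76.3 CPM in WT steady state and 199.6 and 228 in WT LPS, but 45.1 and 51 in KO steady state and 15.2 and 17.8 in KO LPS. The libraries of the 2 treatments did not overlap in either genotype, and they moved in opposite ways. It rose by 1.69 ± 0.25 (SE) in WT (adjusted p = 0.0119) and fell in KO with a log2 response of -1.54 ± 0.25 (adjusted p = 0.014). The interaction was -3.23 ± 0.35, with a 95% confidence interval of -4.06 to -2.41, an unadjusted p of 2.71e-05 and an adjusted p of 0.337. DESeq2 gave it an adjusted p of 2.13e-10, and its interaction was -3.46 to -3.02 when any 1 library was left out.

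**Figure D3:**
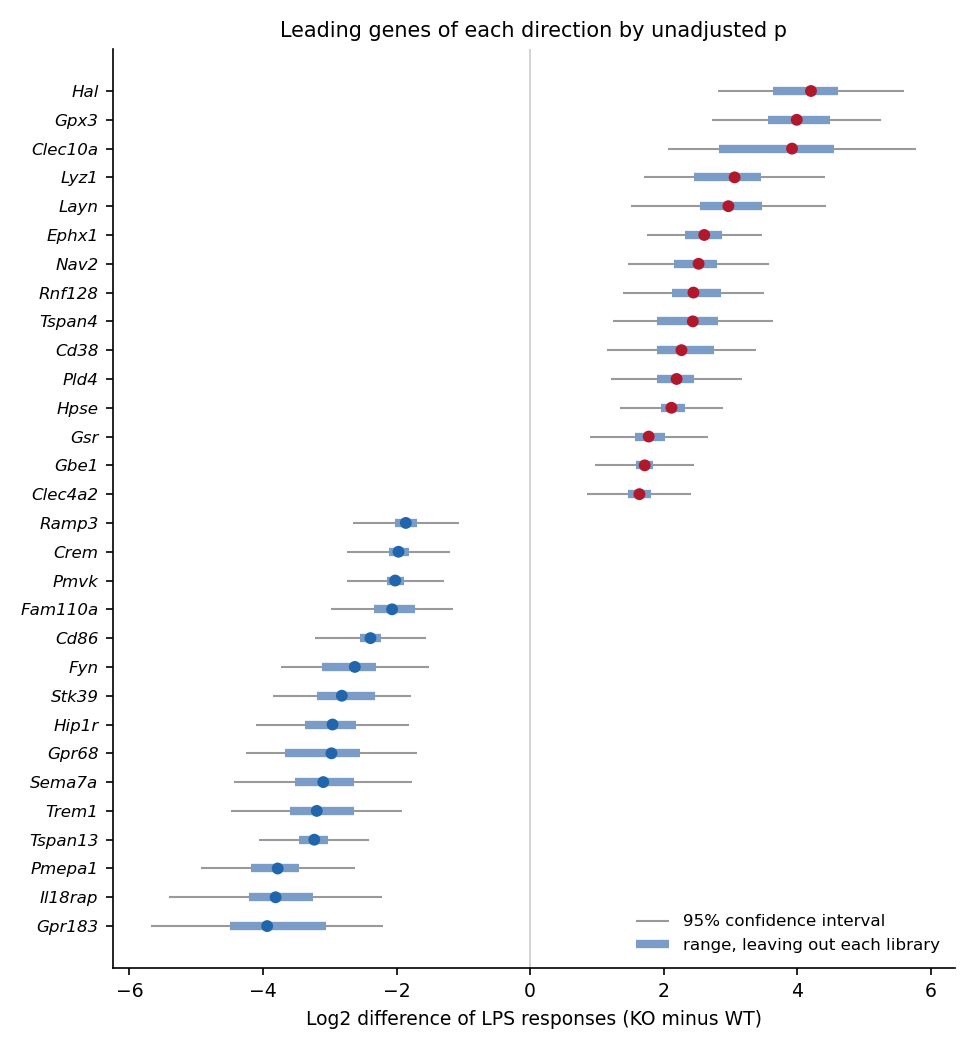
Log2 interaction, KO response minus WT response (x axis), of the 15 genes with the smallest unadjusted p in each direction at a mean log2 CPM of at least 3. Thin lines are 95% confidence intervals and thick lines the range when each library is left out in turn. All 30 ranges keep the side of 0 of the point. None of these genes passed the adjusted threshold in edgeR with the filter on low counts, while DESeq2 called all 30. The genes were chosen by p in the same libraries, so the ranges and the DESeq2 calls are not an independent test.

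A shared core held the interferon-stimulated antiviral genes. Of 32 such genes, 24 rose in both genotypes, and 1 (Bst2) and 1 (Ifitm1) had an unadjusted interaction p under 0.05. The median response was 2.38 in WT and 3.03 in KO. Rsad2, the antiviral radical-SAM enzyme viperin, went from 20.8 and 15.8 to 1806 and 1279 CPM in WT and from 5.97 and 12.7 to 672 and 1427 CPM in KO. Ddx60, a helicase that aids RNA sensing, went from 13.9 and 9.29 to 124 and 204 CPM and from 13.2 and 13 to 250.1 and 121 CPM. Both rose in either genotype, and the LPS libraries of the genotypes overlapped for both, Rsad2 by 6.40 ± 0.62 and 6.82 ± 0.63 and Ddx60 by 3.83 ± 0.46 and 3.82 ± 0.46 (log2 ± SE, WT then KO). Zbp1, a sensor of Z-form nucleic acid, rose by 2.99 ± 0.33 and 2.97 ± 0.33, with an interaction of -0.02 ± 0.43 (95% confidence interval -1.03 to 0.99). The interval of Zbp1 allows a difference of up to about 2-fold either way. Ddx60 is not one of the 32 listed genes. Ddx60 and Zbp1 were named because their interaction was among those nearest 0 in genes called in both genotypes. Their equal responses were thus set by the choice and are not a result. Irf7, the master regulator of type I interferon genes, rose by 6.04 ± 0.59 in WT and 6.80 ± 0.61 in KO, with an interaction of 0.76 ± 0.68 (-0.83 to 2.34). Bst2, the virus tether tetherin, started lower in KO, with 97.6 and 104 CPM against 336 and 217 in WT, and its LPS libraries overlapped, with 841 and 1406 against 1169 and 986. Its interaction was 1.52 ± 0.51 (unadjusted p = 0.0203).

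The windows around the start sites of Il6, Rsad2 and Ddx60 are shown because they carry matches to the motifs of the factors that LPS activates. These genes were chosen after their values were seen: Rsad2 and Ddx60 rose in both genotypes, and the Il6 response was the lower one in KO. Each window runs 5′ to 3′ on the gene's strand from 250 bases before the RefSeq start to 50 after it, in GRCm38.p6. Capitals mark matches to NF-kB (GGGNNTTTC), interferon response (GAAANNGAA) and AP-1 (TGANTCA) motifs on either strand.
Il6 (chr5:30012864-30013163, plus strand): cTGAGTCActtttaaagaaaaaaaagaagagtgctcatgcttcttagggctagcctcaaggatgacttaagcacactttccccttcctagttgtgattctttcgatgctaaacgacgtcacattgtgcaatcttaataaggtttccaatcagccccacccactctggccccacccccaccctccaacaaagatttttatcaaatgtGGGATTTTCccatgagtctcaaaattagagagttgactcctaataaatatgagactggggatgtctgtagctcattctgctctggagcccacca
Rsad2 (chr12:26456403-26456702, minus strand): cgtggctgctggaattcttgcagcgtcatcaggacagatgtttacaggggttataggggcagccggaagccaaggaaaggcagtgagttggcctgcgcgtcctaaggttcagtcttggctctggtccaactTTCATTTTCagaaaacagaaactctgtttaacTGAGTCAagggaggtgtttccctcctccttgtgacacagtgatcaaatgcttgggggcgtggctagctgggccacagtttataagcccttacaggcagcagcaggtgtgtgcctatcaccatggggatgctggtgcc
Ddx60 (chr8:61927837-61928136, plus strand): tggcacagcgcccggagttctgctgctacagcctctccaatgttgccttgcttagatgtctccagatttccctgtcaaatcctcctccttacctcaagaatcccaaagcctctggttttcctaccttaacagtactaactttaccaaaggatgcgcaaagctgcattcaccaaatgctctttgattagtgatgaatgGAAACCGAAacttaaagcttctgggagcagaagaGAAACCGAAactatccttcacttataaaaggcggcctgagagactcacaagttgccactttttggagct
In Il6 the NF-kB match GGGATTTTC begins 44 bases before the start and an AP-1 match, TGAGTCA, 249 before. Rsad2 has the interferon response match on the opposite strand, TTCATTTTC, 119 bases before the start, and an AP-1 match 87 before. Ddx60 has the interferon response match GAAACCGAA in 2 copies, 53 and 19 bases before the start. Over 12698 windows of 9972 tested genes, 7.39% held the interferon response motif, 5.5% the AP-1 motif and 4.36% the NF-kB motif. Over all 32851 windows the shares were 8.56%, 7.81% and 4.36%. In 262 windows of the genes induced in both genotypes they were 18.3%, 14.9% and 6.87%. The GATA motif AGATAA was in 8.61% of windows of genes with the lower KO response at an unadjusted p under 0.05, 4.79% of those with the higher one, 6.53% of all tested and 11.2% of all windows. A match is a run of letters, and no test was made of these shares.

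For comparison with the lists that follow, the median response over all tested genes was 0.0019 in WT and -0.02 in KO, and the median interaction was -0.01. At an unadjusted interaction p under 0.05, 2.76% of all tested genes had the higher KO response and 3.64% the lower. The receptor side of the pathway comes first. Of 18 genes for the LPS receptor and its adaptors, 2 rose in WT and 4 in KO, and the median interaction was -0.01. Tlr4, the signalling receptor, stayed between 33.7 and 90.8 CPM in all 8 libraries. Only Lbp, an LPS-binding protein, and Ticam1, the adaptor TRIF, had an unadjusted interaction p under 0.05, in opposite directions. Of 20 NF-kB subunits and feedback inhibitors, 1 (Rel) did, with the lower KO response. The NF-kB list had a median interaction of -0.50, which was -0.71 to -0.27 leaving out each library, and its count with the lower KO response was 5 without WT LPS library 1 and 3 without KO LPS library 1. The NF-kB count was 0 without either KO steady-state library, KO LPS library 2 or WT steady-state library 1. Of 21 AP-1 and immediate early genes, 2 (Dusp1 and Dusp5) had the lower KO response at an unadjusted p under 0.05. The AP-1 count was 5 without WT LPS library 2, 1 without either KO steady-state library and 0 without either WT steady-state library.

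Inflammatory cytokines had the lower KO response in all 17 genes tested, with a median response of 2.93 in WT and 1.48 in KO. That all 17 lay on one side depended on WT LPS library 1. Without it the interaction was 1.41 for Inhba and 0.81 for Il1rn. In WT 10 of the 17 rose and in KO 5 rose and 1 fell. The interaction had an unadjusted p under 0.05 in 5 of them (Il6, Il12b, Il15, Lif and Osm), against 3.64% of all tested genes with the lower KO response. Il6, which drives acute-phase and T helper responses, had 11.5 and 27.4 CPM in WT steady state and 253 and 249.7 in WT LPS, against 9.85 and 11.1 and then 28.8 and 29.4 in KO. The LPS libraries of the genotypes were far apart and those of a pair close together. Il6 rose 12.9-fold in WT (adjusted p = 0.00561), and its KO change of 2.78-fold missed the threshold (adjusted p = 0.051). The Il6 interaction was -2.21 ± 0.54 (95% confidence interval -3.48 to -0.95, unadjusted p = 0.0041, adjusted p = 0.54). Il12b, the shared subunit of IL-12 and IL-23, had 831 and 857 CPM in WT LPS and 174 and 149 in KO LPS, from 62.1 and 182 (WT) and 147 and 153 (KO) at steady state. The WT steady-state libraries of Il12b differed from each other by more than the KO libraries did. Il12b rose by 2.79 ± 0.49 in WT, and its KO response was 0.11 ± 0.46, an interaction of -2.68 ± 0.66 (unadjusted p = 0.00427). Il15, which sustains NK and memory T cells, fell in KO (-1.23 ± 0.25) and was not called in WT (0.47 ± 0.24). DESeq2 called 3 genes of the list, all lower in KO. Without WT steady-state library 1 there were 3 genes at an unadjusted p under 0.05, and without WT LPS library 2 there were 8.

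Il1b, which encodes pro-interleukin-1 beta, went from 13.7 and 23.3 to 824 and 430.4 CPM in WT and from 14.7 and 21.2 to 346 and 359 CPM in KO. Il1b rose by 5.08 ± 0.48 and 4.30 ± 0.46, and the interaction of -0.78 ± 0.58 had a confidence interval of -2.13 to 0.56. Of 16 inflammatory enzymes 8 rose in both, and 2 (Cd38 and Sod2) had the higher KO response at an unadjusted p under 0.05. Nos2, the inducible nitric oxide synthase, rose by 11.44 ± 1.24 in WT and 10.05 ± 1.17 in KO from below 1 CPM, with 1540.4 and 401 CPM in the WT LPS libraries and 252 and 987 in the KO ones. The LPS libraries of the genotypes overlapped for Nos2 and its interaction of -1.39 ± 1.46 had a wide interval (-4.81 to 2.03). Tnf, the early inflammatory cytokine, went from 5.22 and 4.31 to 22 and 65.1 CPM in WT and from 4.81 and 10 to 31 and 26 CPM in KO. The LPS libraries lay above those at steady state in both genotypes. The Tnf response passed the threshold in WT (adjusted p = 0.0249) and missed it in KO (adjusted p = 0.064), and the interaction was -1.25 ± 0.78 (-3.07 to 0.57). Ifnb1, the interferon beta gene, had 8 reads in each WT LPS library and 1 and 2 in the KO LPS libraries, and did not pass the filter.

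Of 21 chemokines, 4 rose in both genotypes and 3 (Ccl2, Ccl7 and Ccl17) had an unadjusted interaction p under 0.05, all with the lower KO response. The share with the lower KO response over all tested genes was 3.64%. Ccl2, which attracts monocytes, had 65.2 and 45 CPM in WT steady state, 501 and 133 in WT LPS, 13.6 and 58.3 in KO steady state and 4.63 and 14.4 in KO LPS. Its WT LPS libraries lay above all others but differed widely from each other, it was called in neither genotype, and the interaction was -4.46 ± 1.26 (-7.41 to -1.50). Ccl17, a ligand of CCR4 made by dendritic cells, fell 6.41-fold in KO, to 37.2 and 25.3 CPM, and was not called in WT, with 570.5 and 192 CPM. Its interaction was -2.98 ± 0.71 (unadjusted p = 0.00346). Without WT LPS library 2 the number of chemokines with the lower KO response was 5.

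The maturation and costimulation genes had a median interaction of -1.59, with median responses of -0.35 in WT and -1.46 in KO. Of 27 genes tested, 9 had the lower KO response at an unadjusted p under 0.05 (Cd80, Cd86, Cd83, Pdcd1lg2, Cd70, Cd200, Ccr7, Slco5a1 and Stat4) and 1 (Birc3) the higher. Among all tested genes these shares were 3.64% lower and 2.76% higher. Cd86, the ligand that engages CD28 on T cells (chr16:36568956-36666158), had 111 and 110.4 CPM in WT steady state and 598 and 520.0 in WT LPS. The KO steady-state libraries had 67.2 and 82.1 CPM and the KO LPS libraries 78.8 and 64.8. The KO libraries of the 2 treatments overlapped, and all lay below the WT steady-state libraries. Cd86 rose 5.05-fold in WT (adjusted p = 0.00542), and its KO response was -0.06 ± 0.25 log2. The Cd86 interaction was -2.39 ± 0.35 (-3.21 to -1.57, unadjusted p = 0.000201, adjusted p = 0.416), -2.54 to -2.23 leaving out each library, and DESeq2 called it (adjusted p = 2.09e-07).

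Cd80, the companion ligand of Cd86, had 239.9 and 459 CPM in WT LPS and 70.3 and 24.3 in KO LPS, from 57.5 and 86.5 (WT) and 56.4 and 69.1 (KO) at steady state. Cd80 was called in neither genotype, and its interaction was -2.68 ± 0.76 (unadjusted p = 0.00859). Ccr7, the lymph node homing receptor, fell in both genotypes, 3.72-fold in WT and 15.3-fold in KO. Its level went from 2708 and 3206 to 599 and 992 CPM in WT and from 1914 and 2124 to 159 and 106 CPM in KO. The interaction of Ccr7 was -2.04 ± 0.54 (-3.30 to -0.78, unadjusted p = 0.00619, adjusted p = 0.579). St8sia4, the polysialic acid synthase that modifies CCR7, was called in neither genotype, with 189.9 and 262 CPM in WT steady state, 138 and 460.3 in WT LPS, 201 and 214 in KO steady state and 287 and 134 in KO LPS. The St8sia4 interaction was -0.38 ± 0.82, and its interval of -2.30 to 1.53 covers large differences both ways. Summed dendritic cell markers were also lower in KO LPS (5143 and 8205 CPM in KO LPS, 12740 and 15890 in WT LPS), and their part in this list was not tested. Ccr7 belongs to both lists, and most of the sum came from Cd74, H2-Aa and H2-Ab1. The class II presentation list, which holds these 3 genes, had a median interaction of -0.26. The number of genes in this list with the lower KO response depended on single libraries: it was 5 without KO steady-state library 1 or WT steady-state library 1, 6 without KO LPS library 2 or WT LPS library 2, 15 without KO LPS library 1 and 22 without WT LPS library 1. The median interaction of the list was -0.34 without WT LPS library 2.

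**Figure D4:**
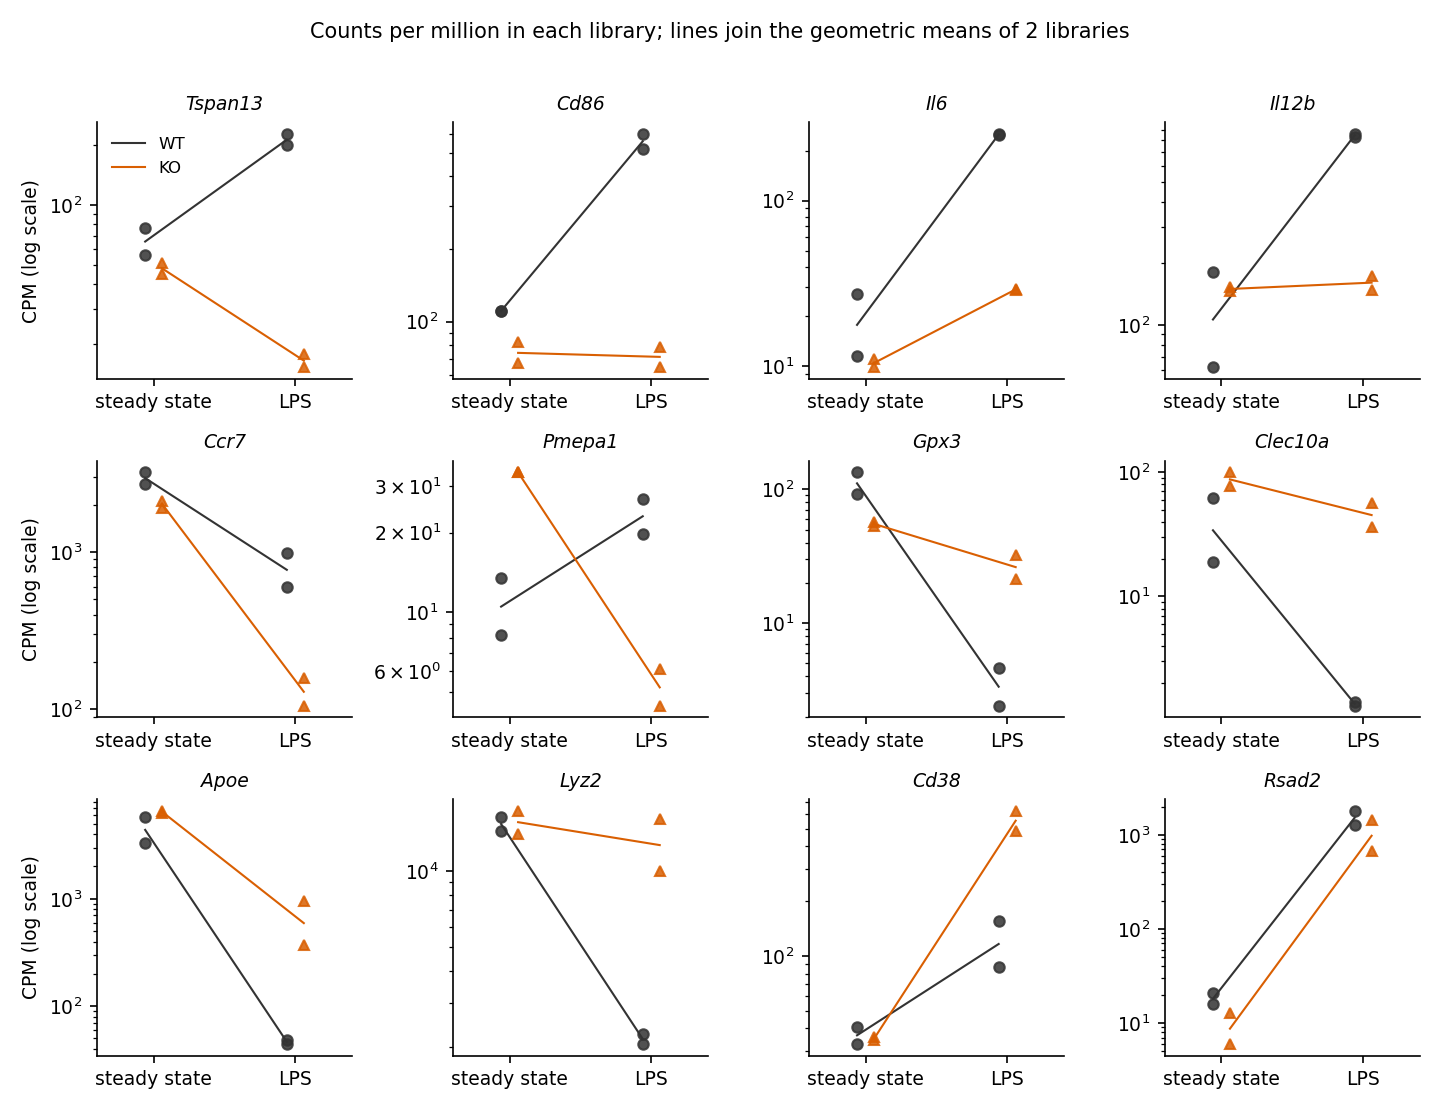
CPM on a log scale (y axis) in each library at steady state and with LPS (x axis) for 12 genes; black circles are WT and orange triangles KO, 2 libraries per group, and lines join geometric means. Il6 and Cd86 climbed further in WT and Tspan13 parted between the genotypes, Gpx3, Clec10a, Apoe and Lyz2 dropped further in WT, Ccr7 dropped further in KO, Cd38 climbed further in KO, and Rsad2 climbed in both.

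Factors that set dendritic cell identity fell on both sides of the interaction, most of those with a low p on the lower one. Of 22 lineage factors, 6 had the lower KO response at an unadjusted p under 0.05 (Irf8, Batf3, Zbtb46, Tcf4, Runx3 and Flt3) and 1 (Cebpa) the higher. Among all tested genes these shares were 3.64% lower and 2.76% higher. Irf8, needed for the cross-presenting lineage, had 2022 and 2292 CPM in WT LPS and 568 and 266 in KO LPS, from 1154 and 1436 (WT) and 937 and 858 (KO) at steady state. Its libraries with LPS lay above those at steady state in WT and below them in KO, it was called in neither genotype, and the interaction was -1.84 ± 0.57 (unadjusted p = 0.0139). Zbtb46, a factor of conventional dendritic cells, fell in KO (-2.85 ± 0.47) to 12 and 4.9 CPM, against 44.3 and 50.5 in WT LPS. The Zbtb46 interaction was -2.29 ± 0.62 (unadjusted p = 0.00718). Batf3, the partner of Irf8, fell in KO (-2.18 ± 0.37), was not called in WT (-0.71 ± 0.35), and had an interaction of -1.47 ± 0.50. Without WT steady-state library 1 the number of these factors with the lower KO response at an unadjusted p under 0.05 was 1.

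Among 18 interferon regulatory, STAT and SOCS factors, 5 (Irf8, Stat3, Stat4, Stat5a and Cish) had the lower KO response at an unadjusted p under 0.05 and 0 the higher. For all tested genes these shares were 3.64% lower and 2.76% higher. Stat5a, which carries GM-CSF signals, rose in WT by 1.55 ± 0.32 and had a KO response of -0.11 ± 0.32. It had 324 and 188 CPM in WT LPS and 56.7 and 77.8 in KO LPS, and the interaction was -1.65 ± 0.45 (unadjusted p = 0.0071). Cish, a STAT5 target that damps cytokine receptors, was called in neither genotype, with 241 and 86.4 CPM in WT LPS, 34.3 and 31.4 in KO LPS and an interaction of -2.30 ± 0.61. Without WT steady-state library 1 there were 2 such genes, and without either KO steady-state library there were 3. Gata2, the GATA factor of blood stem cells and mast cells, had 32.2 and 36.5 CPM in WT steady state, 135 and 67.6 in WT LPS, 50.9 and 76.1 in KO steady state and 10.4 and 27.7 in KO LPS. Gata2 was called in neither genotype and had an interaction of -3.30 ± 0.73 (-5.01 to -1.59, unadjusted p = 0.00239).

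Antigen uptake receptors showed the opposite side of the interaction. Of 29 lectin and uptake receptors tested, 10 had the higher KO response at an unadjusted p under 0.05 (Clec4a2, Clec4a3, Clec4d, Clec4n, Clec9a, Clec10a, Clec12a, Msr1, Marco and Fcgr4) and 0 the lower. For all tested genes these shares were 2.76% higher and 3.64% lower. The median response of the list was -1.21 in WT and -0.08 in KO. Clec10a, a galactose-type lectin (chr11:70166623-70170836), had 61.8 and 18.8 CPM in WT steady state and 1.32 and 1.42 in WT LPS, against 99.8 and 76.9 CPM, then 56.1 and 36.4 with LPS, in KO. The WT LPS libraries lay far below all the others. Clec10a fell 28.9-fold in WT (adjusted p = 0.00907) and was not called in KO (-0.93 ± 0.52), and the interaction was 3.92 ± 0.80 (2.06 to 5.79, unadjusted p = 0.00146). Clec4a2, an inhibitory lectin receptor, fell in WT to 27.2 and 21.3 CPM and had 110.0 and 108 in KO LPS, with an interaction of 1.64 ± 0.33. Its neighbour Clec4a3 rose in KO, to 117 and 116 CPM, against 16 and 29.1 in WT LPS, an interaction of 2.08 ± 0.51. Reads of such similar lectin genes may be shared between them, since the handling of reads that match several genes is not stated. Without KO steady-state library 1 there were 6 genes of the list with the higher KO response, and the counts without another single library were 8 to 15.

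Lipid and lysosome genes lay on the same side. Of 20 lipid-handling genes, 4 (Apoe, Apoc2, Lipa and Fabp5) had the higher KO response at an unadjusted p under 0.05 and 0 the lower, with a median interaction of 0.74. Of 25 lysosome genes the numbers were 3 (Cd63, Ctsk and Lyz2) and 0, with a median of 0.73. For all tested genes the shares were 2.76% higher and 3.64% lower. Apoe, the lipid carrier apolipoprotein E, fell in both genotypes, from 5776 and 3318 to 44.4 and 48.9 CPM in WT and from 6597 and 6303 to 947 and 372 CPM in KO. The fall was 97.4-fold in WT and 9.78-fold in KO, an interaction of 3.32 ± 0.74 (1.59 to 5.04, unadjusted p = 0.00245, adjusted p = 0.532). Lyz2, lysozyme of macrophages, fell in WT from 16438 and 14342 to 2256 and 2056 CPM, while KO had 17333 and 14069 CPM, then 16039 and 10001 with LPS. The KO libraries of the 2 treatments overlapped, and the interaction was 2.57 ± 0.61 (unadjusted p = 0.00364). Its near-identical neighbour Lyz1 ranked among the leading genes as well, and how shared reads were divided is not stated. Lipa, the lysosomal acid lipase, fell in WT to 384 and 406 CPM and had 1670 and 1899.5 CPM in KO LPS, an interaction of 1.90 ± 0.44. Without WT LPS library 1 the lysosome count was 11 and the lipid count 7, and without KO steady-state library 2, KO LPS library 2 or WT steady-state library 1 the lysosome count was 1. Macrophage and monocyte markers, which include Apoe and Lyz2, summed to 12920 and 21630 CPM in KO LPS and 4576 and 6330 in WT LPS. Lyz2 alone gave 8160 and 15970 CPM of the KO LPS sums and 2145 and 2010 of the WT LPS sums. The sums are therefore not separate from the Lyz2 result, and the part of these markers in these results was not tested. With LPS the single macrophage and monocyte markers differed in level. Mrc1, the mannose receptor, was at 1.74 CPM of total counts or less in WT LPS and at 5.85 or less in KO LPS. Other markers were not low: Csf1r had 585 and 402 CPM in WT LPS and 1341 and 924 in KO LPS. Cd14 had 2187 and 1061 CPM in WT LPS and 1194 and 1266 in KO LPS.

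**Figure D5:**
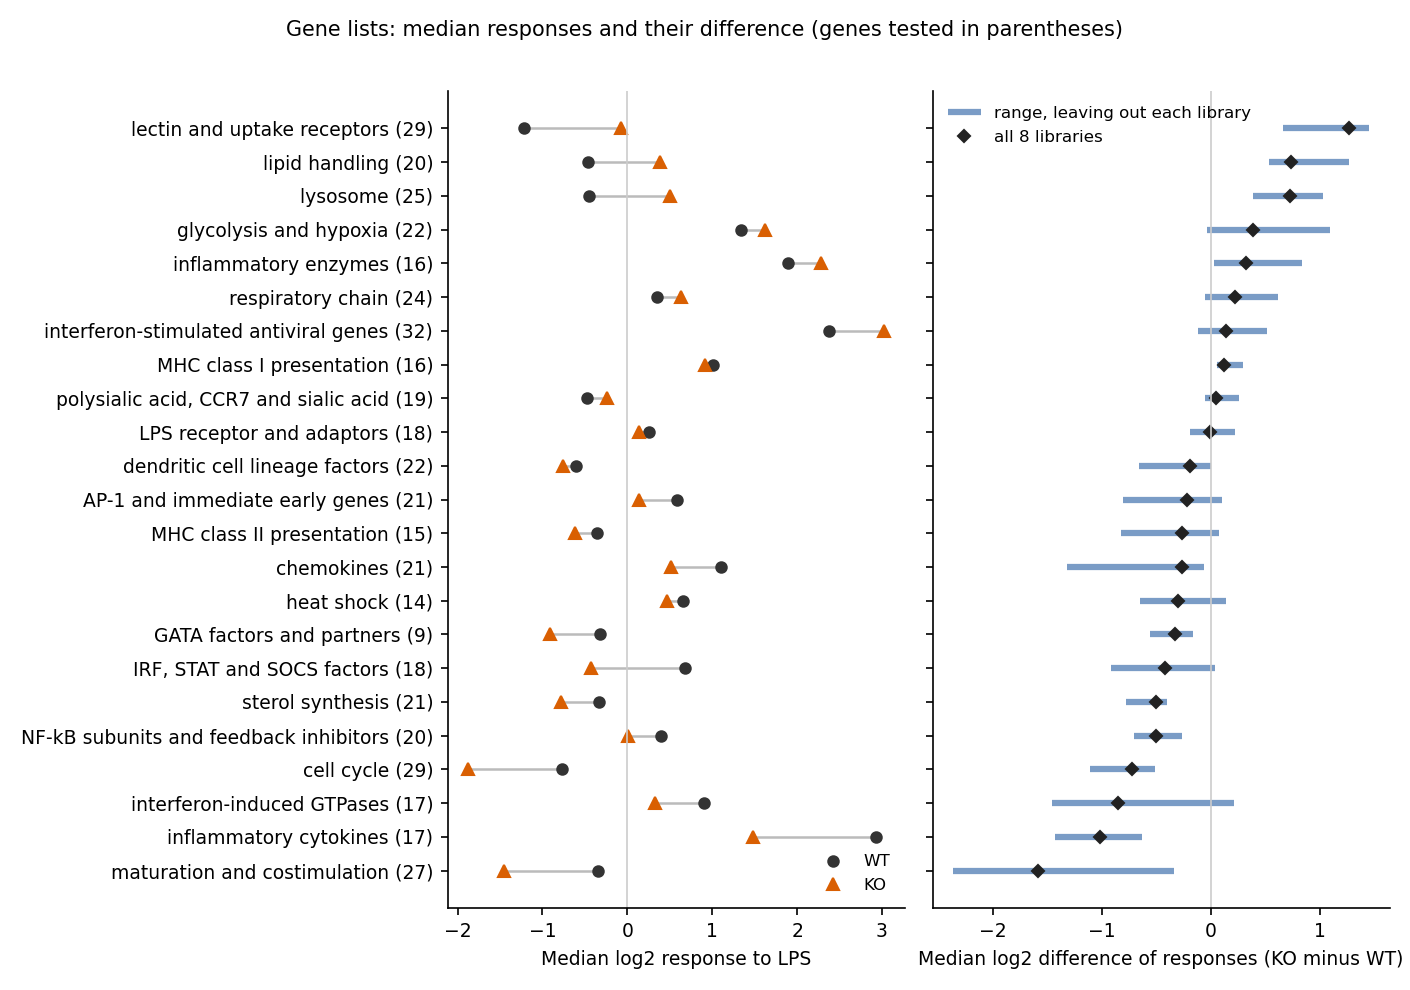
Left, the median log2 response to LPS of each gene list in WT (circles) and KO (triangles), with the genes tested in parentheses; right, the median log2 interaction with all 8 libraries (diamonds) and its range when each library is left out (bars). The bars of lectin and uptake receptors, lipid handling, lysosome, inflammatory enzymes and MHC class I presentation stay above 0. Those of maturation and costimulation, inflammatory cytokines, cell cycle, sterol synthesis and NF-kB subunits and inhibitors stay below 0. The bars of chemokines and of GATA factors and partners also stay below 0. Those of the interferon-stimulated antiviral genes and of the remaining lists span 0.

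Several leading genes of the higher KO response act in redox and detoxification chemistry. Gpx3, a secreted glutathione peroxidase (chr11:54902854-54910387), had 134 and 91.8 CPM in WT steady state and 4.63 and 2.41 in WT LPS, against 57.3 and 53 CPM, then 21.3 and 32.2 with LPS, in KO. It fell 32.9-fold in WT (adjusted p = 0.00372) and was not called in KO (-1.05 ± 0.36). The Gpx3 interaction was 3.99 ± 0.54 (2.73 to 5.26, unadjusted p = 0.000113, adjusted p = 0.377). Ephx1, the microsomal epoxide hydrolase, fell in WT from 115 and 78.4 to 22.1 and 23.8 CPM and had 82.9 and 75 CPM, then 103 and 125 with LPS, in KO, an interaction of 2.61 ± 0.37. Gsr, the glutathione reductase, rose in KO from 149.8 and 178 to 617 and 521 CPM, while WT had 149 and 150.4 CPM, then 129 and 175 with LPS, an interaction of 1.78 ± 0.38 (unadjusted p = 0.00193). Sod2, the mitochondrial superoxide dismutase, rose in both, 10.4-fold in WT and 23.3-fold in KO, to 625 and 505 CPM (WT) and 1232 and 1362 CPM (KO), an interaction of 1.16 ± 0.38. Gsta3, a glutathione transferase, rose in both, to 12.6 and 21 CPM in WT and 61.3 and 107 in KO, an interaction of 3.08 ± 0.70. Sepp1, the selenium carrier selenoprotein P, fell in both, 18.8-fold in WT and 3.56-fold in KO, an interaction of 2.40 ± 0.52. These 6 genes were grouped after their values were seen.

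Other genes with the higher KO response at an unadjusted p under 0.05 have separate functions. Cd38, an enzyme that consumes NAD, rose in both genotypes, from 41 and 32.9 to 86.8 and 156 CPM in WT and from 34.4 and 36 to 627 and 488 CPM in KO. The steady-state libraries of Cd38 lay together and the KO LPS libraries stood above the WT ones, with an interaction of 2.27 ± 0.47 (1.16 to 3.38, unadjusted p = 0.00174). Hpse, the heparanase that cuts heparan sulfate, rose 4.62-fold in KO, to 176 and 167 CPM, and stayed at 50 and 41.9 CPM in WT LPS from 45.3 and 41 at steady state, an interaction of 2.12 ± 0.33. Gbe1, the glycogen branching enzyme, rose in KO to 79.2 and 82.1 CPM and had 22.9 and 19.1 in WT LPS, an interaction of 1.72 ± 0.32. Hal, which breaks down histidine, was already apart at steady state: its KO libraries held 41 and 34.9 CPM, its WT libraries 3.28 and 2.97. Hal fell in WT to 0.132 and 0.0619 CPM, which is few reads, and KO LPS libraries held 25 and 18.4, an interaction of 4.21 ± 0.59. March1, a membrane ubiquitin ligase that lowers surface MHC class II, rose in KO to 322 and 176 CPM and had 54.9 and 61.9 in WT LPS, an interaction of 1.72 ± 0.45 (unadjusted p = 0.00609). Of 15 class II presentation genes it was the only one with the higher KO response at an unadjusted p under 0.05, and H2-DMb2, a peptide-loading chain, was the only one with the lower (-1.27 ± 0.35).

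The sterol synthesis and cell cycle genes that stood out had the lower KO response. Among all tested genes, 3.64% had the lower KO response at an unadjusted p under 0.05 and 2.76% the higher. Of 21 sterol genes, 6 had an unadjusted p under 0.05 and the lower KO response, among them Pmvk, Idi1 and Srebf2, and 0 the higher. The median response was -0.33 in WT and -0.78 in KO. Pmvk, phosphomevalonate kinase, rose in WT from 70.4 and 84.5 to 211 and 242 CPM and had 48.9 and 45.8 CPM, then 35 and 33.2 with LPS, in KO. The WT LPS libraries of Pmvk stood above all others, and the interaction was -2.02 ± 0.31 (-2.74 to -1.30, unadjusted p = 0.000257, adjusted p = 0.422). Srebf2, the factor that drives the pathway, fell in KO (-1.16 ± 0.25) and was not called in WT (0.11 ± 0.24), an interaction of -1.26 ± 0.34. Idi1, an isomerase of the pathway, fell in KO to 0.791 and 0.153 CPM, which is few reads, and its interaction was -3.07 ± 0.80. The count of 6 was 3 without KO steady-state library 1 or WT steady-state library 2. Of 29 cell cycle genes, 9 had the lower KO response at an unadjusted p under 0.05, among them Top2a, Mcm5, Tyms and Uhrf1, and 0 the higher, but this count was 1 without KO steady-state library 2, 5 without KO LPS library 2, 2 without WT steady-state library 1 and 2 with limma-voom.

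The other lists held few genes with an unadjusted interaction p under 0.05. The share over all tested genes was 6.41%. There were 0 of 16 MHC class I presentation genes, and 0 without any 1 library. There were 0 of 17 interferon-induced GTPases, with a median interaction of -0.85, but 5 with the lower KO response without KO LPS library 1, 3 without WT LPS library 1, 2 without WT steady-state library 2, and 2 with the higher one without WT LPS library 2, where the median was 0.21. Of 14 heat shock genes there were 0, but 5 with the lower KO response without WT LPS library 2 and 1 without KO LPS library 2. Of 22 glycolysis and hypoxia genes, 4 rose in WT and 10 in KO. Pfkp, a phosphofructokinase subunit, had the lower KO response and Gapdh the higher. Gapdh was counted at 0.974 to 5.36 CPM in the 8 libraries, far below the usual level of this abundant enzyme, so its value is uncertain. Without WT LPS library 1 the number of glycolysis and hypoxia genes with the higher KO response was 10. Of 24 respiratory chain genes 1 (Sdhb) had the higher KO response, and 4 did without WT LPS library 1. Of 9 GATA factors and partners 1 (Gata2) had the lower, and 2 did without either WT LPS library. Of 19 genes for polysialic acid, CCR7 signalling and sialic acid, Nrp1 and Npl had the higher KO response and Ccr7 the lower, against 3 higher and 3 lower without WT LPS library 1 and 4 higher without WT LPS library 2.

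Further genes with the lower KO response have separate functions, and all those named here but Il1r2 are among the 15 with the smallest p in that direction. Pmepa1, a membrane regulator of TGF-beta signals, fell in KO from 33.8 and 33.8 to 6.1 and 4.44 CPM and was not called in WT, with 8.21 and 13.5 CPM, then 19.8 and 26.9 with LPS. The interaction was -3.78 ± 0.49 (-4.93 to -2.62, unadjusted p = 9.04e-05). Gpr183, the oxysterol receptor that positions dendritic cells in lymphoid tissue, fell in KO from 28.4 and 54.8 to 5.65 and 7.5 CPM and had 21.6 and 21.4 CPM, then 76.3 and 28.1 with LPS, in WT, an interaction of -3.94 ± 0.74. Trem1, an amplifier of inflammatory signals, fell in KO to 3.05 and 2.45 CPM and had 10.7 and 9.34 in WT LPS, an interaction of -3.19 ± 0.55. Il18rap, an IL-18 receptor chain, fell in both, to 2.38 and 2.91 CPM in WT and 0.452 and 0.306 in KO, the latter few reads, an interaction of -3.81 ± 0.68. Il1r2, the decoy receptor for interleukin-1, rose in WT to 124 and 219 CPM and had 17.7 and 18.8 in KO LPS, an interaction of -3.14 ± 0.61.

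Stk39, a kinase of ion transport, rose in WT from 31 and 27.6 to 190.2 and 103 CPM and had 23.2 and 23.5 CPM, then 17.3 and 15.8 with LPS, in KO, an interaction of -2.82 ± 0.44 (unadjusted p = 0.000305). Fyn, a Src-family kinase, fell in KO from 107 and 99.8 to 23.9 and 13.3 CPM, while WT had 102 and 118 CPM, then 98.7 and 146 with LPS, an interaction of -2.62 ± 0.47. Hip1r, an endocytic adaptor, fell in KO to 5.99 and 3.67 CPM and had 63.3 and 68.2 in WT LPS, an interaction of -2.96 ± 0.49. Every one of the 30 leading genes kept the direction of its interaction under each alternative run, and DESeq2 called all 30. These genes were chosen by their small p in the same libraries, so neither outcome is an independent test.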

How the data were processed

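Total RNA from mouse dendritic cells was made into libraries with the TruSeq RNA v2 kit, a method without strand information, per the labels' protocols. The authors deposited 1 table of raw read counts per gene for 8 libraries. TopHat2 2.0.8, Subread 1.4.3, featureCounts, edgeR 3.6.8 and mm10 appear in the submitters' processing notes, with no further roles. The treatment of reads that match more than 1 gene or lie in overlapping genes was not given in the sources used here. Groups came from the sample labels.

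Genes were kept by filterByExpr (minimum count 10, minimum total 15). They were fitted in edgeR 4.0.16 (R 4.3.3) with TMM factors, 1 coefficient per group and all 8 libraries. Quasi-likelihood F tests, two-sided, were adjusted by Benjamini-Hochberg over 12442 genes. The residual degrees of freedom were 4, the prior ones drawn from other genes 3.4, and the biological coefficient of variation 0.34. CPM values use TMM-scaled library sizes, and marker sums use total counts. Log2 responses are model coefficients ± SE. DESeq2 1.42.0, limma-voom (limma 3.58.1), other scalings, filters and thresholds, a replicate block and leaving out each library were run as alternatives, and the fit was tested on simulated data. With total counts of 8005151 to 15495249, a gene at 1 CPM rests on few reads, and each group rests on 2 libraries.

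Coordinates, promoters and older names came from RefSeq tables of GRCm38.p6: 11586 tested symbols matched directly, 804 by a synonym and 52 not at all. The members, the gene lists and markers were chosen with earlier results of these data known. Genes were named by rule: the 15 smallest interaction p-values in each direction at a mean log2 CPM of at least 3, the leading genes of each response class and of each list, and genes the study is about. Genes named to spell out a count, and Birc3, Cd200, Cd83, Cebpa, Clec12a, Clec4d, Clec9a, Csf1r, Flt3, H2-Aa, H2-Ab1, Marco, Mrc1, Msr1, Ngp, Osm, Pdcd1lg2, Runx3, Slco5a1, Stat4 and Tlr4, fall outside it and were named after their values were seen.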

Additional observations from a re-analysis of the deposited data

How the results depend on the processing

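The number of genes called for the interaction stayed at 0 under the other scalings, the stricter filter, limma-voom, robust dispersion, the stricter threshold, the replicate block and without any 1 library. It was 3 with no filter on low counts (Gpx3, Tspan13 and Pmepa1) and 104 with DESeq2. Genes called in WT, in KO, and in the same direction in both numbered 1497, 2223 and 973 with no filter, 1995, 2846 and 1302 with DESeq2, and 253, 2686 and 218 with limma-voom. At an adjusted p under 0.01 the WT and KO calls were 150 and 219. Leaving out each library in turn gave 70 to 3629 calls in WT, 143 to 3345 in KO, 62 to 1975 in the same direction in both, and 404 to 1714 interaction genes at an unadjusted p under 0.05. The KO response is computed from KO libraries, but its p uses the spread pooled over all groups, so leaving out a WT library also changes it. The causes of these shifts were not tested. The response classes sorted by a 2-fold change held 2590 genes with the same direction in both, in place of 552. Pearson's r between the responses was 0.675 to 0.773 without any 1 library.

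Same-numbered libraries did not deviate together in every pair of groups (correlations -0.599 to 0.26), and no label ties a number to an animal or day. With the replicate number as a block there were 465 WT calls, 776 KO calls and 309 in both, and 0 for the interaction. With KO LPS library numbers swapped in the block, an alternative chosen after seeing the data, the counts were 1285, 2484, 911 and 0.

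Of 51 genes with a printed interaction over all 8 libraries, 49 kept its direction under all alternatives. The alternatives refit the same libraries, so this is not an independent test. That of Zbp1 was 0.029 with upper-quartile factors and -0.40 to 0.30 leaving out each library, and that of St8sia4 was -1.04 to 0.74. Low-count genes such as Hal, Idi1 and Il18rap rest on few reads in a group. With 2 libraries per group, differences below about the confidence intervals printed were not detectable.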
